A study of Mus musculus with 3 samples.

Results

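The cell cycle genes examined here were 45 genes that act in DNA replication, at the G1/S transition and in mitosis. They were chosen by name, and all 45 were found among the 33506 mouse genes with a level in the deposited table. The level of a gene was taken in FPKM, the number of sequenced fragments scaled to transcript length and to library size, from the first row of each of its Ensembl transcripts that had a value for all 3 libraries, summed over the transcripts. FPKM is a level per length, so that levels of different genes can be set side by side. By role, 9 of the genes encode proteins of origin licensing and the replication fork and 4 supply deoxynucleotides, together called S phase genes (13). Another 5 act at the G1/S transition. The mitosis genes (25) comprise 7 genes of the mitotic cyclins and the anaphase-promoting complex, 6 of mitotic and proliferation kinases, 6 of the chromosomal passenger complex and centromere and 6 of the spindle and cytokinesis. The last 2 are Mki67 and Top2a.

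Cells were sorted from BALB/C mice that carried tumors of Renca, a mouse renal carcinoma cell line, in the kidney (the study's methods name its derivative Renca Ch+ L+, which carries Cherry and luciferase), in a study of whether tumor macrophages express Foxp3. There was 1 library each of type-1 macrophages (M1; F4/80 intermediate, CD11b high), type-2 macrophages (M2; F4/80 high, CD11b intermediate) and CD4 T lymphocytes (CD4; TCRbeta+ CD4+). According to the labels, macrophages came from a pool of 30 tumors and CD4 T cells from a pool of 4 spleens, although the labels also name the tumor as the source of the latter, and both day 14 and day 16 after injection are given. With 1 library per cell subset no difference has a replicate check, so that no p-value is given and a difference is between libraries. In bulk RNA, fewer cells of a type and less RNA per cell cannot be told apart.

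A dividing cell licenses its replication origins in G1, copies its DNA in S phase and then builds a spindle that parts the chromosomes in mitosis. E2F transcription factors drive the genes of the G1/S transition and of S phase, and the DREAM and MuvB complexes with B-Myb and FoxM1 control the later wave of mitotic genes through promoter elements called CHR (cell cycle genes homology region) and CCAAT boxes. Resting T cells of the spleen are for the most part outside the cycle until they meet antigen, while macrophages in tissues and tumors can divide locally.

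Markers of the sorted cells were examined before the cell cycle genes. Of a T-cell list of 10 genes, 9 had a level, and all 9 were highest in the column headed M2, with a summed level of 1571 FPKM there against 4.86 in M1 and 1.57 in CD4. All 10 genes of a macrophage list were lowest in the column headed M2, with a summed level of 602 FPKM against 7970 in M1 and 11606 in CD4. Cd247, a chain of the T cell receptor complex, was listed at 0 in M1 and CD4 in the rows used. With all rows of the table summed Cd247 was at 3.14 FPKM in M1 and 2.74 in CD4, against 102 in M2. The markers thus went against the names M2 and CD4, and the libraries are called by their labels throughout, so that each direction below rests on those labels.

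Read depth, estimated from the level of 1 fragment, was 61900000 fragments for the library labelled M1, 60300000 for M2 and 72400000 for CD4. Cell cycle genes above 0 had an estimated 605 to 17318 fragments in M1, 405 to 10440 in M2 and 480 to 15550 in CD4. Counting alone gave the log2 ratio of such a gene between the libraries labelled M2 and M1 a standard error of at most 0.0906, which covers counting error only and not the spread between animals or sorts.

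Most cell cycle genes were lowest in the library labelled M2. Of the 45, 38 were lowest there, 2 in M1 and 4 in CD4, and the remaining gene, Tk1, was listed at 0 in all 3. The median level was 17.2 FPKM in M1, 7.83 in M2 and 17.4 in CD4, where the median of all genes with at least 1 FPKM was 9.96, 9.58 and 9.90 FPKM. Among genes above 0 the cell cycle genes had a median rank at the 80.0 percentile in M1, 65.2 in M2 and 80.6 in CD4. Over the 42 genes above 0 in all 3 libraries the level in M1 was 0.848 to 4.13 times that in M2, with a median of 2.05. The level in CD4 was 0.609 to 4.59 times that in M2, with a median of 2.07, and 0.332 to 1.54 times that in M1, with a median of 0.970. The libraries labelled M1 and CD4 thus had like levels of the cell cycle genes and M2 lower ones.

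**Figure D1:**
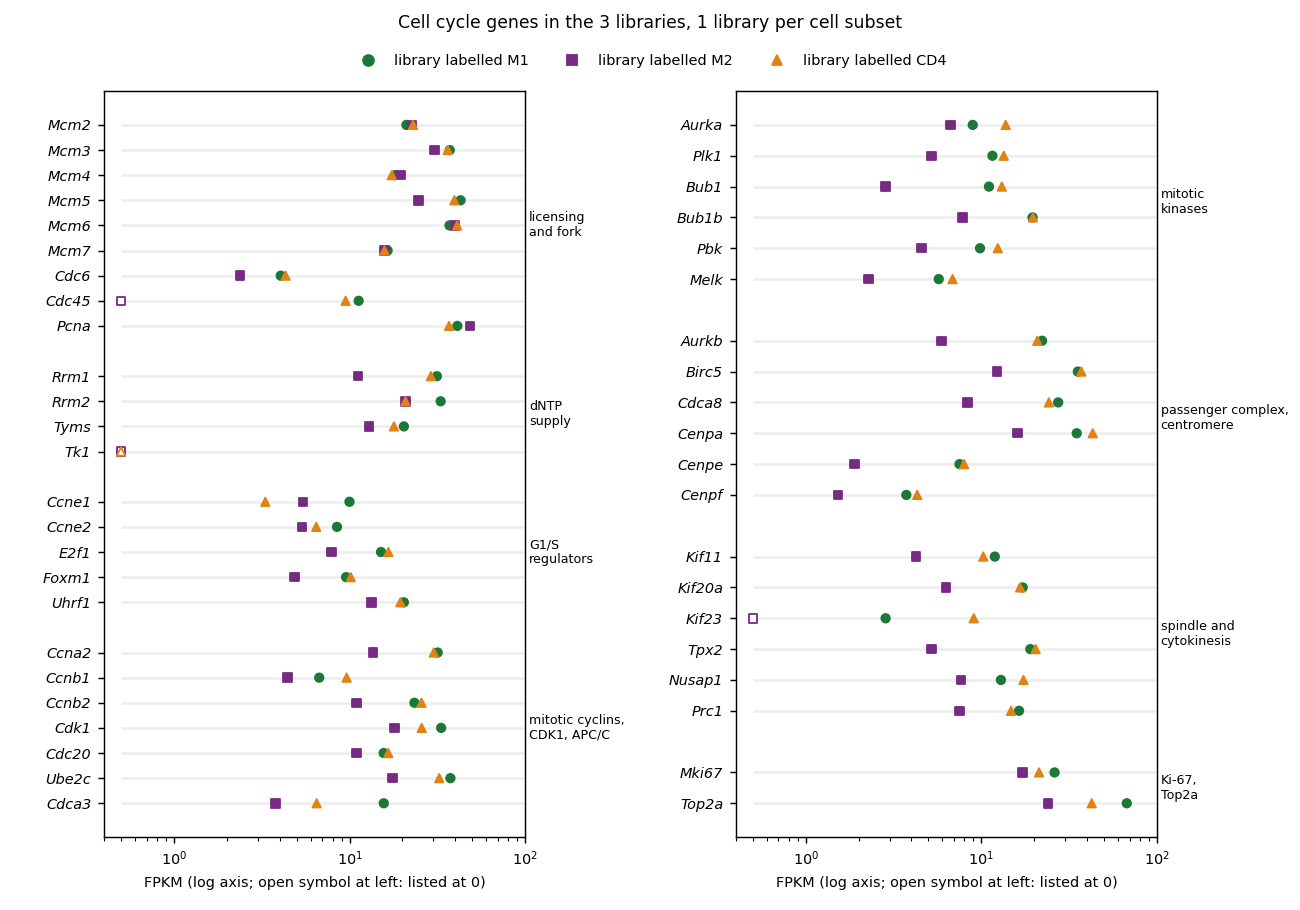
Level of each of the 45 cell cycle genes in FPKM (log axis) in the libraries labelled M1 (circles), M2 (squares) and CD4 (triangles), grouped by role, with open symbols at the left for genes listed at 0. The squares lie left of the other symbols for 38 genes, while the Mcm genes and Pcna at the top have all 3 symbols close together apart from Mcm5.

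Genes were counted as higher or lower where log2(FPKM + 1) differed by at least 1, which is 2-fold on this scale, among genes with at least 1 FPKM in either library. This scale understates the ratio of low genes. Of the 44 cell cycle genes counted, 0 were higher in the library labelled M2 when compared with M1, where 16.9% of all 12415 genes counted were, and 21 were lower, where 14.5% of all genes were. Compared with the library labelled CD4, 0 were higher in M2 (17.3% of all genes) and 20 were lower (15.3% of all genes). The median difference of the cell cycle genes was -0.93 on the log2 scale for M2 minus M1 and -0.96 for M2 minus CD4, where that of all genes was 0.10 and 0.12. Both comparisons share the library labelled M2. Lower in both were 17 genes: Cdc45, Rrm1, Ccna2, Ccnb2, Plk1, Bub1, Bub1b, Melk, Aurkb, Birc5, Cdca8, Cenpa, Cenpe, Kif11, Kif20a, Kif23 and Tpx2. Ube2c, Cdca3, Prc1 and Top2a were lower than in M1 only, and Pbk, Cenpf and Nusap1 lower than in CD4 only. With all rows of the table summed Cdca3 and Top2a were also lower than in CD4, Nusap1 and Ccnb1 also lower than in M1, Mki67 lower than in both, and Kif23 and Tpx2 lower than in neither. Cdc45 and Kif23 were listed at 0 in M2, and without the genes listed at 0 in any library 19 were lower than in M1 and 18 lower than in CD4, an alternative chosen after seeing the data.

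Genes of origin licensing and the replication fork had about the same levels in the 3 libraries, apart from Mcm5, Cdc6 and Cdc45. Mcm2 to Mcm7 encode the subunits of the MCM2-7 complex, the helicase that unwinds DNA at the fork. Mcm2 (chromosome 6 from 88833469 to 88848774 in build NCBIM37) was found at 21.1 FPKM in M1, 22.7 in M2 and 23.0 in CD4. Mcm6 was at 37.1 FPKM in M1, 39.8 in M2 and 41.0 in CD4, and Mcm7 at 16.5, 15.8 and 15.8 FPKM in the same order. The 6 subunit genes lay between 16.5 and 42.9 FPKM in M1, between 15.8 and 39.8 in M2 and between 15.8 and 41.0 in CD4, and their summed levels were 173, 153 and 173 FPKM. Mcm5 differed most of the 6, at 42.9 FPKM in M1, 24.8 in M2 and 39.5 in CD4. Pcna, the sliding clamp of the DNA polymerases, was at 41.1, 48.4 and 36.9 FPKM in the order M1, M2 and CD4, and was highest of the 45 genes in M2. Cdc6, which loads the helicase onto origins, was at 4.06 FPKM in M1, 2.38 in M2 and 4.32 in CD4. Cdc45, which joins the helicase when origins fire, was at 11.3 FPKM in M1 and 9.50 in CD4 and was listed at 0 in M2. It was the 1 gene of these 9 that was lower in M2 by at least 2-fold, in both comparisons. A row that was not used held 0.609 FPKM of Cdc45 in M2, and an exact 0 can also be a failed estimate. With all rows summed Cdc45 was still lower in M2, at -2.93 on the log2 scale against M1 and -2.71 against CD4.

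Genes of deoxynucleotide supply were more uneven. Rrm1, the large subunit of ribonucleotide reductase, was at 31.4 FPKM in M1, 11.2 in M2 and 29.1 in CD4, and lies on chromosome 7 from 109590209 to 109618285 (NCBIM37). Rrm2, the small subunit of the same enzyme, was at 33.0 FPKM in M1 and 20.9 and 20.8 FPKM in M2 and CD4. The 2 subunits thus differed: Rrm1 was 2.82 times as high in M1 as in M2 and 2.60 times as high in CD4, while Rrm2 was 1.58 times as high in M1 as in M2 and level between CD4 and M2. Tyms, thymidylate synthase, was at 20.4 FPKM in M1, 12.9 in M2 and 17.9 in CD4. Tk1, thymidine kinase, was listed at 0 in every library, over all 7 of its transcripts in the table. An exact 0 in such a table can also be a failed estimate, so that no absence of Tk1 RNA is read from it.

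Promoter windows of RefSeq (build GRCm38.p6, from 250 bases before to 50 bases after a start site) were available for 37 of the 45 genes and were searched on both strands for the E2F site GCGGGAA, the CHR TTTGAA and the box CCAAT. Mcm4, Ccne2, Foxm1, Ccna2, Pbk, Aurkb, Kif20a and Tpx2 had no window. The E2F letters were found in 4 of 12 S phase genes (33.3%), in 0 of 20 mitosis genes and in 5.29% of 27025 genes with a window, or 4.60% of 32851 windows. The S phase genes were Mcm3, Mcm7, Cdc6 and Rrm1, and Uhrf1 held the letters too. A match is a description of these letters and not evidence of a bound site. The 4 matches are shown because these genes range from level (Mcm7) to lower in the library labelled M2 (Rrm1). Each run has 30 bases, read in the direction of the gene, with GCGGGAA or its reverse complement TTCCCGC in capitals.
Mcm3, chr1:20820276-20820305, minus strand: taaacttccgtgGCGGGAAaacttgggaag
Mcm7, chr5:138172031-138172060, minus strand: taatttcgaaccGCGGGAAacagggtgtcc
Cdc6, chr11:98908001-98908030, plus strand: ggccggtggagaGCGGGAAatcgcctgggg
Rrm1, chr7:102441616-102441645, plus strand: caggagaactcgTTCCCGCcaggtccgctt
Counted from base 1 at the start site, with -1 as the base before it, the capitals began at base -138 in Cdc6, -67 in Rrm1, -165 in Mcm7 and 20 in Mcm3, and Mcm7 held a second match of the letters in another window.

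The 5 genes of the G1/S transition had log2 differences between -0.86 and -0.58 for M2 minus M1, so that none reached 2-fold. E2f1, an E2F factor that activates S phase genes, was at 15.1 FPKM in M1, 7.90 in M2 and 16.6 in CD4. Foxm1, the forkhead factor of mitotic genes, was at 9.56, 4.87 and 10.2 FPKM in the order M1, M2 and CD4. Both were close to a 2-fold difference, with log2 differences for M2 minus M1 of -0.86 for E2f1 and -0.85 for Foxm1. Uhrf1, which carries DNA methylation to the new strand, was at 20.4, 13.3 and 19.5 FPKM. Ccne2, a cyclin E, was at 8.48 FPKM in M1, 5.35 in M2 and 6.46 in CD4. The other cyclin E gene, Ccne1 (chromosome 7 from 38883003 to 38892553), stood apart, since it was lowest in CD4: it was at 9.99 FPKM in M1, 5.44 in M2 and 3.32 in CD4. With all rows of the table summed Ccne1 was within 2-fold in each comparison, at -0.32 on the log2 scale for CD4 minus M1 in place of -1.35.

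Mitotic cyclins and their partners were lower in the library labelled M2 for 4 of 7 genes against M1 and for 2 of 7 against CD4. Among all genes counted, 14.5% were lower in M2 than in M1 and 15.3% lower than in CD4. Ccna2, cyclin A2, was at 31.8 FPKM in M1, 13.6 in M2 and 30.2 in CD4. Ccnb2, a cyclin B, was at 23.4 FPKM in M1, 10.9 in M2 and 25.7 in CD4. These cyclins were lower in M2 in both comparisons, and their catalytic partner Cdk1 was at 33.2, 18.0 and 25.7 FPKM, within 2-fold. Of its level in M2, 4.56 FPKM came from a transcript with a retained intron that was listed at 0 in M1 and CD4. The protein-coding transcript of Cdk1 was at 33.2 FPKM in M1, 13.5 in M2 and 25.7 in CD4, over 2-fold lower in M2 than in M1. Ccnb1, the other cyclin B, was at 6.72 FPKM in M1, 4.42 in M2 and 9.62 in CD4. Cdc20, which activates the anaphase-promoting complex, was at 15.6, 10.9 and 16.6 FPKM in the order M1, M2 and CD4, and Ube2c, the ubiquitin-conjugating enzyme of that complex, at 37.5, 17.6 and 32.4 FPKM. Cdca3, a trigger of mitotic entry, was at 15.7 FPKM in M1, 3.79 in M2 and 6.50 in CD4. It had the largest ratio of M1 to M2 of the genes above 0 in the rows used, 4.13, and lies on chromosome 6 from 124779565 to 124783719 (NCBIM37). With all rows summed the level of Cdca3 in M2 was 0.389 times that in M1. Other genes were then further apart, such as Melk at 0.261 times.

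Kinases of mitosis and proliferation were lower in M2 for 4 of 6 genes against M1 and for 5 of 6 against CD4. The shares of all genes were 14.5% and 15.3%. Bub1, a kinase of the spindle checkpoint (chromosome 2 from 127626858 to 127657601, NCBIM37), reached 11.0 FPKM in M1, 2.85 in M2 and 13.1 in CD4. Its ratios to M2, 3.88 in M1 and 4.59 in CD4, made it the gene above 0 with the largest ratio of CD4 to M2 in the rows used. Its level in M2 with all rows summed was 5.48 FPKM, 0.419 times that in CD4, and Cenpa was then further apart, at 0.196 times. Bub1b, its paralog at the checkpoint, was at 19.6 FPKM in M1, 7.83 in M2 and 19.7 in CD4. Plk1, which drives mitotic entry and centrosome maturation, was at 11.6, 5.21 and 13.4 FPKM, and Melk, the maternal embryonic leucine zipper kinase, at 5.72, 2.28 and 6.86 FPKM in the same order. Bub1, Bub1b, Plk1 and Melk were thus lower in M2 in both comparisons. Pbk, the PDZ-binding kinase, was at 9.83 FPKM in M1, 4.56 in M2 and 12.4 in CD4. Aurka, the Aurora kinase of the spindle poles, was the kinase with the smallest ratios, at 8.93 FPKM in M1, 6.69 in M2 and 13.8 in CD4.

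The chromosomal passenger complex and centromere genes were lower in M2 for 5 of 6 genes against M1 and for 6 of 6 against CD4. Lower in M2 among all genes were 14.5% and 15.3%. Aurkb, the kinase of the passenger complex (chromosome 11 from 68859149 to 68865166), was at 22.2 FPKM in M1, 5.95 in M2 and 20.8 in CD4. Birc5, which encodes survivin, was at 35.4 FPKM in M1, 12.3 in M2 and 37.1 in CD4. Cdca8, which encodes borealin, was at 27.4 FPKM in M1, 8.36 in M2 and 24.2 in CD4. These 3 subunits of 1 complex were 2.88 to 3.73 times as high in M1 as in M2 and 2.90 to 3.50 times as high in CD4. Cenpa, the histone H3 variant of centromeres, was at 34.9, 16.1 and 43.1 FPKM in the order M1, M2 and CD4. Cenpe, a kinetochore motor, was at 7.51, 1.89 and 7.97 FPKM, and Cenpf, a large kinetochore protein, at 3.74, 1.53 and 4.31 FPKM. Cenpf was the lowest of the genes above 0 in M2.

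Spindle and cytokinesis genes were lower in M2 for 5 of 6 genes in each comparison. The shares of all genes lower in M2 were 14.5% against M1 and 15.3% against CD4. Kif11, the motor that holds the spindle poles apart, was at 11.9 FPKM in M1, 4.24 in M2 and 10.3 in CD4. Kif20a, a motor of the central spindle, was at 17.2, 6.29 and 16.6 FPKM in the order M1, M2 and CD4. Tpx2, a spindle assembly factor that activates Aurora A, was at 19.0 FPKM in M1, 5.22 in M2 and 20.4 in CD4. All 3 were over 2-fold lower in M2, although Tpx2 was within 2-fold with all rows of the table summed, at -0.75 on the log2 scale against M1. Prc1, which bundles the microtubules of the central spindle, was at 16.4, 7.53 and 14.8 FPKM and Nusap1, a microtubule-binding protein, at 12.9, 7.65 and 17.4 FPKM. Kif23, another motor of the central spindle (chromosome 9 from 61765087 to 61794606, NCBIM37), reached 2.85 FPKM in M1 and 9.05 in CD4 and was listed at 0 in M2. Mki67, which encodes the proliferation marker Ki-67, was at 26.1 FPKM in M1, 17.2 in M2 and 21.3 in CD4, within 2-fold in each comparison. With all rows of the table summed Mki67 was over 2-fold lower in M2, at -1.32 on the log2 scale against both M1 and CD4. Top2a, the topoisomerase that untangles chromosomes, was the highest of the 45 genes in M1, at 67.3 FPKM, and was at 24.0 in M2 and 42.5 in CD4.

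The CHR and CCAAT were both found in most mitosis genes with a window. The letters TTTGAA were found in 14 of 20 mitosis genes with a window (70%), in 2 of 12 S phase genes (16.7%), in 18 of all 37 cell cycle genes (48.6%) and in 20.2% of 27025 genes, or 17.9% of 32851 windows. In all 14 mitosis genes a match lay within 50 bases of the start site, where 5.72% of genes had one. CCAAT was found in 17 of 20 mitosis genes (85%), 9 of 12 S phase genes (75%) and 41.1% of genes or 37.4% of windows, and both motifs in 14 of 20 mitosis genes and 7.97% of genes. The runs below are shown because they carry the CHR letters of mitosis genes of each role, most of them lower in the library labelled M2. They are 30 bases long and in the direction of the gene, with TTTGAA or its reverse complement TTCAAA in capitals (GRCm38.p6).
Ccnb2, chr9:70421533-70421562, minus strand: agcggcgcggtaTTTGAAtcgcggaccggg
Cdk1, chr10:69352910-69352939, minus strand: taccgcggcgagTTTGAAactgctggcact
Ube2c, chr2:164769888-164769917, plus strand: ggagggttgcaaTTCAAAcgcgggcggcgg
Plk1, chr7:122159453-122159482, plus strand: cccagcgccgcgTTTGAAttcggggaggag
Cenpa, chr5:30666890-30666919, plus strand: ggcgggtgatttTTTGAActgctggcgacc
Kif11, chr19:37376351-37376380, plus strand: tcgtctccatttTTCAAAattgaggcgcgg
Prc1, chr7:80294434-80294463, plus strand: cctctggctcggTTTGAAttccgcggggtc
The capitals began at base 5 in Ccnb2, 17 in Cenpa and 31 in Plk1, and before the start site at base -15 in Cdk1, -19 in Kif11 and -29 in Ube2c. The nearest CCAAT box upstream began 25 bases before the CHR in Ccnb2, 33 in Cdk1, 28 in Ube2c, 26 in Kif11 and 32 in Prc1. In Plk1 this distance was 44 bases and in Cenpa 102.

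Mitosis genes without the letters in this window were Bub1, Cenpe, Ccnb1, Melk, Birc5 and Nusap1. In the rows used Bub1 and Cenpe had among the largest ratios of M1 to M2 of all 45 genes, so that lower genes were found with and without the letters. Over 16 cell cycle genes with CHR and above 0 in both libraries the median difference of M2 minus M1 was -1.03 on the log2 scale with a range from -1.80 to 0.10, and over 18 genes without it -0.66 with a range from -1.65 to 0.23. This contrast mixes the letters with role, since 14 of the 18 genes with CHR were mitosis genes. Among the mitosis genes without CHR the difference was -1.65 for Bub1, -1.56 for Cenpe and -1.45 for Birc5. It was -1.04 for Melk, -0.69 for Nusap1 and -0.51 for Ccnb1. With all rows of the table summed the order changed, to -1.70 for Ccnb1, -1.68 for Nusap1 and -1.57 for Melk. Bub1 was then at -1.50, Birc5 at -1.45 and Cenpe at -1.12.

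The difference between the library labelled M2 and the other 2 libraries was thus uneven over the phases of the cycle. Of the S phase genes, 2 of 12 were lower in M2 in each comparison, Rrm1 and Cdc45, the latter listed at 0 in M2 in the rows used. This was near the share of all genes lower in M2, 14.5% against M1 and 15.3% against CD4. However, 0 of the 12 were higher in M2, where 16.9% and 17.3% of all genes were. The S phase genes had a median log2 difference of -0.43 against M1 and -0.14 against CD4, beside 0.10 and 0.12 for all genes. Of the mitosis genes, 18 of 25 were lower in each comparison, with medians of -1.07 and -1.21. Within 1.5-fold of their level in M1 were 6 of 11 S phase genes above 0 in all libraries and 2 of 24 mitosis genes. The same held against CD4 for 8 of 11 S phase genes and 1 of 24 mitosis genes. Within a library, the median of the S phase genes was 21.1 FPKM in M1, 19.5 in M2 and 20.8 in CD4, and that of the mitosis genes 15.7, 6.29 and 16.6 FPKM. The S phase median was therefore 3.10 times the mitosis median in M2, against 1.34 times in M1 and 1.25 times in CD4.

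**Figure D2:**
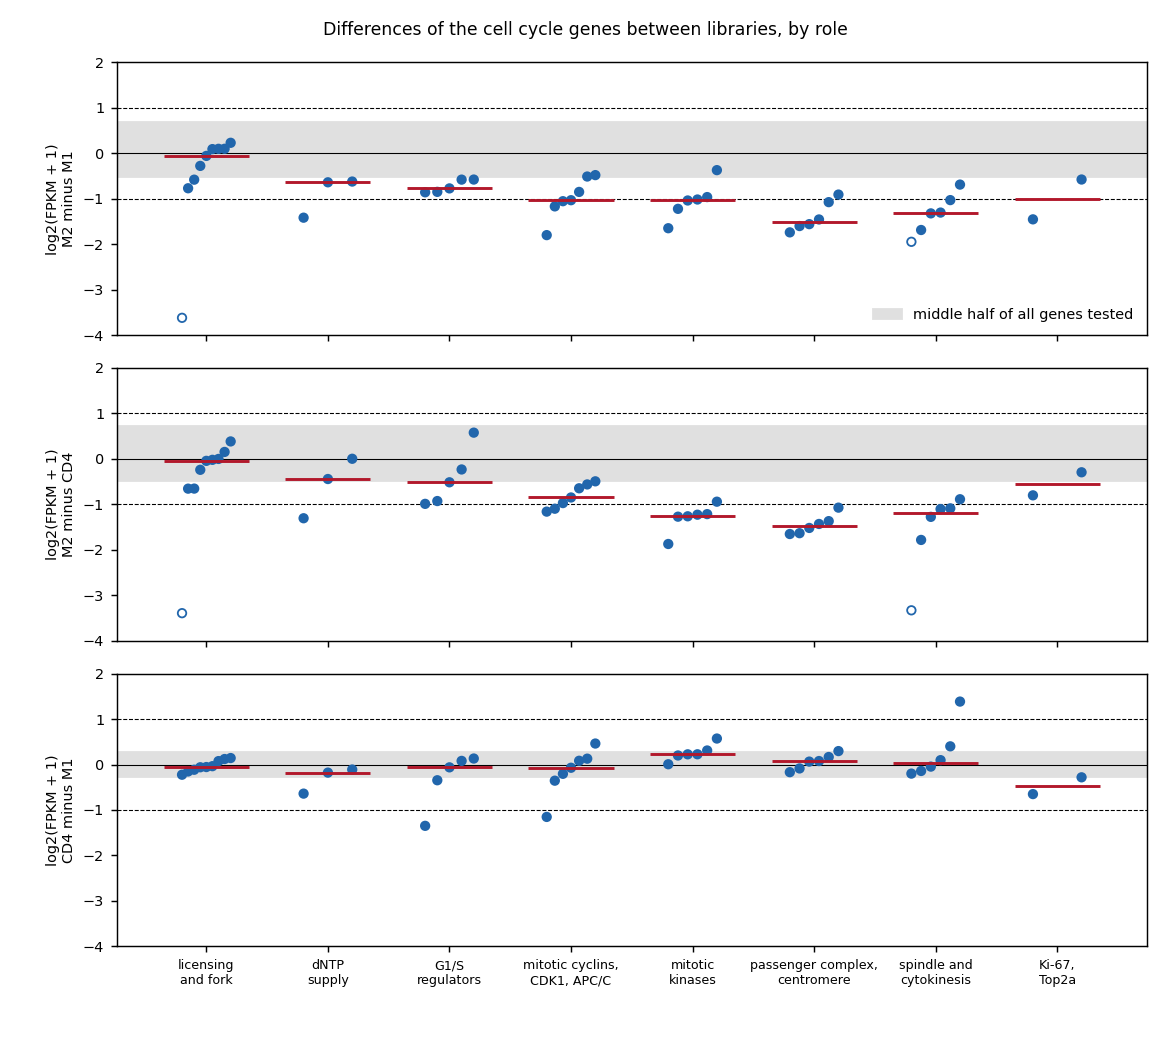
Difference in log2(FPKM + 1) between 2 libraries for each cell cycle gene counted (points; open where the gene was listed at 0 in a library), by role, with the median of each role as a red line, dashed lines at a 2-fold difference and the grey band between the lower and upper quartile of all genes counted. In the upper panels (M2 minus M1 and M2 minus CD4) the medians of the mitotic roles lie between -0.85 and -1.51 and those of licensing and fork genes at -0.06 and -0.04; in the lower panel (CD4 minus M1) most points lie near 0.

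The libraries labelled CD4 and M1, both with macrophage markers, differed little in the cell cycle genes. Of 44 genes counted, 1 was higher in CD4 than in M1, where 7.01% of all 11572 genes were, and 2 were lower, where 7.21% of all genes were. The median difference was -0.04 on the log2 scale, beside -0.01 for all genes. Kif23 was the gene that was higher, and Ccne1 and Cdca3 were lower. None of the 3 kept its call when all rows of the table were summed, which took the difference of Kif23 from 1.38 to -0.0035, that of Ccne1 to -0.32 and that of Cdca3 from -1.15 to -0.21. Of the 42 genes above 0 in all libraries, 37 were within 1.5-fold between CD4 and M1. Top2a and Rrm2 were outside it without reaching 2-fold, at 1.58 and 1.59 times as high in M1. Aurka was 1.54 times as high in CD4 as in M1, and 21 genes were highest in each of these 2 libraries.

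Of the 263 rows of the table that belonged to the cell cycle genes, 185 entered the levels above, and 30 genes had at least 1 row that did not, because it repeated a transcript or lacked a value in a library. For 8 genes these rows held more FPKM than the rows used in at least 1 library. The largest case was Cenpa in CD4, with 67.3 FPKM in such rows beside 43.1 FPKM in the rows used. Kif23 had 13.9 FPKM in such rows in M1 and 12.1 in M2, so that its 0 in M2 holds for the rows used only. With all rows summed Kif23 was within 2-fold, at -0.44 on the log2 scale for M2 minus either of the other libraries. With all rows summed, 22 genes were lower in M2 than in M1 and 21 lower than in CD4, and 0 were higher in either comparison.

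**Figure D3:**
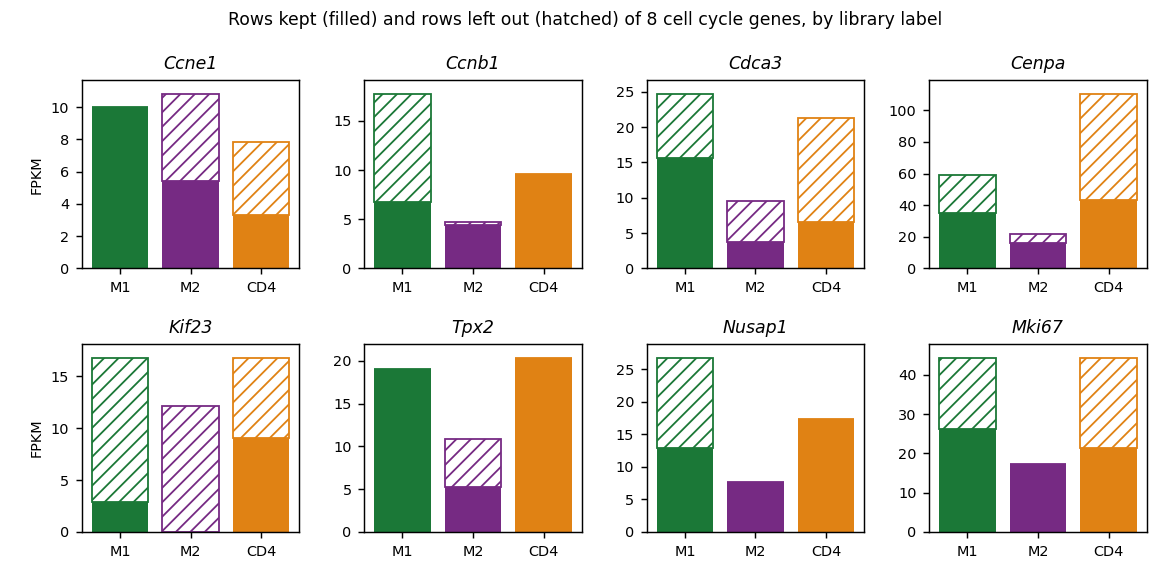
FPKM in the rows used (filled) and in the rows that were left out (hatched, stacked on top) for the 8 cell cycle genes with more in the latter in at least 1 library, by library label, on linear axes from 0. Kif23 in M2 consists of rows left out alone (12.1 FPKM), and for Cenpa the left-out rows add 67.3 FPKM in CD4, so that M2 remains the lowest library for Cenpa.

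Transcripts of the cell cycle genes were mostly used alike. Of 36 genes with more than 1 transcript, 33 were above 0 in all libraries, and 31 of these had the same leading transcript in all 3. Ccnb1 was led by a protein-coding transcript in M1 and CD4, at 2.37 and 5.93 FPKM, and in M2 by a transcript with a retained intron, at 1.57 FPKM. For Cdca3 the protein-coding transcript was at 9.58 FPKM in M1, 1.88 in M2 and 2.74 in CD4, and a retained-intron transcript at 6.08, 1.91 and 3.76 FPKM, which led in M2 and CD4. Tyms had most of its level in transcripts that do not code for protein, with a protein-coding share of 16.7% in M1, 16.4% in M2 and 17.8% in CD4. Top2a was split between a long protein-coding transcript at 45.2, 15.8 and 28.2 FPKM and a shorter one at 22.1, 8.19 and 14.3 FPKM in the order M1, M2 and CD4, a near constant ratio. FPKM are shared between overlapping transcripts by a model, which limits these values.

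Further genes of the pathway were read from lists chosen by function. Of 38 other S phase genes 36 had a level; of 35 counted, 0 were higher and 5 lower in M2 than in M1, and of 33 counted against CD4, 1 was higher and 4 were lower. The counts of lower genes were near the share of all genes, 14.5% against M1 and 15.3% against CD4. Those of higher genes were below the share of all genes, 16.9% and 17.3%. The counts with all rows summed were 1 higher and 3 lower against M1 and 0 higher and 3 lower against CD4. Mcm10, a replication initiation factor, was at 11.8 FPKM in M1, 3.19 in M2 and 9.79 in CD4. Fanci, of the Fanconi anemia pathway, was at 3.02 FPKM in M1 and 2.85 in CD4 and was listed at 0 in M2, and Clspn, a replication checkpoint adaptor, was at 4.79, 0.843 and 3.53 FPKM. Clspn was, with all rows summed, within 2-fold against M1, at -0.80 on the log2 scale, and still lower than in CD4. Cdc7, the kinase that fires origins, was higher in M2 than in CD4, at 6.17 FPKM in M1, 11.5 in M2 and 4.51 in CD4, but within 2-fold with all rows summed. Of 48 other mitosis genes counted, 1 was higher and 17 were lower in M2 than in M1, and 2 were higher and 17 lower than in CD4. With all rows summed these counts were 0 and 13 against M1 and 1 and 15 against CD4. Espl1, which encodes separase, was at 10.1 FPKM in M1, 1.21 in M2 and 7.23 in CD4. Ttk, a checkpoint kinase, was at 5.48, 1.26 and 5.62 FPKM, within 2-fold with all rows summed, and Smc2, a condensin subunit, at 9.06, 2.49 and 6.01 FPKM. Smc4, the condensin partner of Smc2, went the other way, at 22.5 FPKM in M1, 69.9 in M2 and 32.9 in CD4, and with all rows summed was within 2-fold against M1. Between CD4 and M1, 0 of 35 other S phase genes and 2 of 48 other mitosis genes passed 2-fold, Cenpk and Troap, both lower in CD4 and both within it with all rows summed. Among all genes counted, 7.01% were higher and 7.21% lower in CD4 than in M1.

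The regulators that act before S phase differed in their own pattern. Ccnd1, Ccnd2 and Ccnd3 encode the D cyclins, which start the passage through G1 with Cdk4 and Cdk6. Ccnd1 was at 41.7 FPKM in CD4 and 4.02 in M2 and was listed at 0 in M1. Ccnd2 was highest in M2, at 61.9 FPKM against 9.50 in M1 and 7.52 in CD4. Ccnd3 was at 74.9 FPKM in M1, 61.2 in M2 and 24.4 in CD4. Each D cyclin gene thus had another library as its highest, while Cdk4 was at 67.7, 52.5 and 76.5 FPKM and Cdk2 at 16.9, 16.9 and 19.5 FPKM, within 2-fold throughout. Cdk6 was listed at 0 in M2 and was at 4.60 FPKM in M1 and 2.97 in CD4, and its order turned with all rows summed. Cdc25a, the phosphatase that activates CDK2, was at 3.47, 5.93 and 5.75 FPKM in the order M1, M2 and CD4.

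Of 7 inhibitors of the cyclin-dependent kinases, 4 were highest in the library labelled M2, while Cdkn1a was lowest there. Cdkn1a, which encodes p21, was at 123 FPKM in M1, 17.6 in M2 and 42.9 in CD4. Cdkn1b, which encodes p27, was at 22.7 FPKM in M1, 62.9 in M2 and 25.3 in CD4. Cdkn1a and Cdkn1b thus had opposite orders, with log2 differences of -2.73 and 1.43 for M2 minus M1. Among the INK4 inhibitors of CDK4 and CDK6, Cdkn2a was at 14.4, 29.0 and 12.5 FPKM, Cdkn2b at 0.773, 3.34 and 0.564 FPKM and Cdkn2d at 12.8, 20.2 and 7.98 FPKM in the order M1, M2 and CD4. Cdkn2c was at 18.8 FPKM in M1, 19.2 in M2 and 23.8 in CD4, and Cdkn1c was below 1 FPKM in all 3. Of 6 inhibitor genes counted, 2 were higher and 1 lower in M2 than in M1, and 4 were higher and 1 lower than in CD4, and these counts were the same with all rows summed. Of all genes, 16.9% were higher and 14.5% lower in M2 than in M1, and 17.3% were higher and 15.3% lower than in CD4. The counts of lower inhibitor genes were thus near the share of all genes.

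Of 6 genes that restrain proliferation in resting cells, 4 were higher in M2 than in M1, as were 16.9% of all genes, and 3 higher than in CD4, as were 17.3%. Summing all rows, 3 were higher than in M1, 2 of them among the 4, and 4 were higher than in CD4. Foxo1, a forkhead factor of quiescent lymphocytes, was at 3.75 FPKM in M1, 37.3 in M2 and 3.41 in CD4, with log2 differences of 3.01 and 3.12. Klf2, a quiescence factor of T cells, was at 7.39 FPKM in M1, 22.5 in M2 and 17.9 in CD4. Btg1 was at 37.7, 165 and 44.8 FPKM and Btg2 at 32.2, 70.6 and 26.8 FPKM in the order M1, M2 and CD4. With all rows summed Btg1 turned to -0.22 on the log2 scale for M2 minus M1 and Btg2 was within 2-fold. Tob1 was at 8.16, 9.38 and 7.83 FPKM, but with all rows summed was higher in M2, at 1.33 on the log2 scale against M1 and 1.31 against CD4, and Foxo3 at 5.24, 5.41 and 6.38 FPKM.

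**Figure D4:**
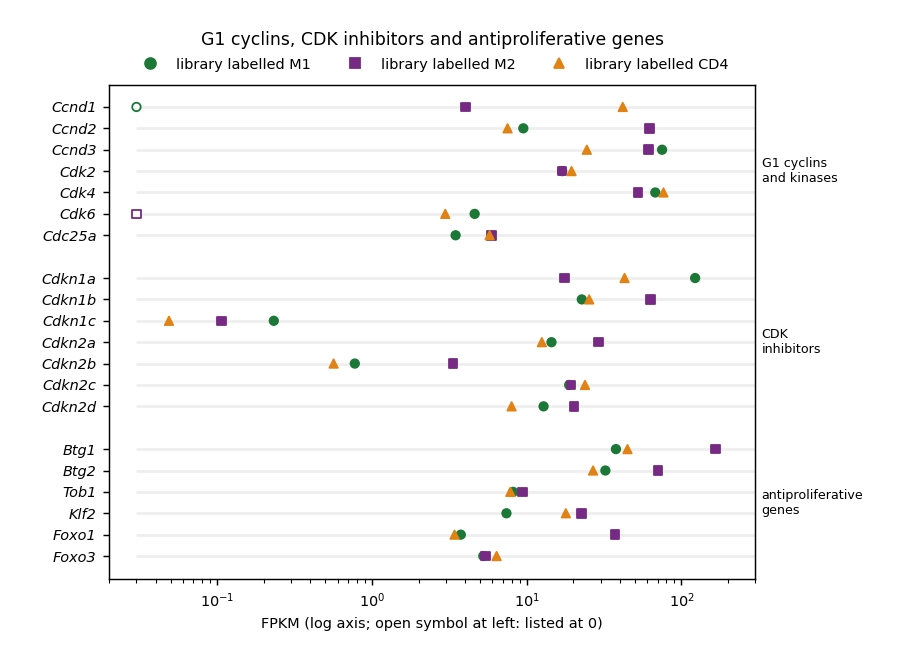
Level in FPKM (log axis) of G1 cyclins and kinases, CDK inhibitors and antiproliferative genes in the libraries labelled M1 (circles), M2 (squares) and CD4 (triangles), with open symbols for genes listed at 0. M2 is the highest library for Ccnd2 (61.9 FPKM), Cdkn1b (62.9), Foxo1 (37.3) and Btg1 (165) and the lowest for Cdkn1a (17.6).

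Among 17 genes of the retinoblastoma, E2F and DREAM regulators, 1 of 16 counted was higher and 5 were lower in M2 than in M1, and 0 were higher and 2 lower than in CD4. Of all genes, 16.9% were higher and 14.5% lower in M2 than in M1, and 17.3% were higher and 15.3% lower than in CD4. The count lower than in CD4 was thus near the share of all genes. Rbl2, which encodes the pocket protein p130 of the DREAM complex, was at 9.30 FPKM in M1, 19.7 in M2 and 10.1 in CD4. E2f8, an E2F repressor, was at 12.8 FPKM in M1, 3.33 in M2 and 8.23 in CD4. Both kept their calls against M1 with all rows summed, where the counts were 1 higher and 2 lower. Against CD4 the counts turned with all rows summed, to 2 higher (Rbl2 and E2f2) and 0 lower. E2f2 was at 9.95 FPKM in M1, 2.41 in M2 and 2.09 in CD4, and Tfdp1, the dimer partner of E2F factors, at 12.3, 4.77 and 21.7 FPKM, and both were within 2-fold against M1 with all rows summed. Rb1, the retinoblastoma gene, was at 22.5, 25.0 and 25.9 FPKM.

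Markers of other cell types that the sorts could hold also differed between the libraries, and their part in the levels of the cell cycle genes was not tested. Among all genes counted, 16.9% were higher and 14.5% lower in M2 than in M1. Against CD4 these shares were 17.3% and 15.3%. Of a B-cell list of 6, 4 of 4 counted were higher in M2 than in both other libraries, with a summed level of 51.9 FPKM in M2 against 0.441 in M1 and 0.508 in CD4, and Cd79b was listed at 0 in M2. Of a neutrophil list of 7, 4 of 4 counted were higher, with 205 FPKM against 47.4 and 10.4, and Ly6g was listed at 0 in M2 in the rows used. With all rows summed Ly6g was at 1.26 FPKM in M2 against 0.048 in M1 and 0.092 in CD4. Of an erythroid list of 6, 5 of 5 counted were higher, with 302 FPKM against 43.9 and 48.2. Renal epithelial markers, 8 in all, summed to 121 FPKM in M1, 194 in M2 and 93.0 in CD4, but did not move together: of 6 counted 3 were higher and 1 lower in M2 than in M1, and of 5 counted 2 were higher than in CD4. Cdh1, which encodes E-cadherin, was at 48.2 FPKM in M1, 6.69 in M2 and 3.84 in CD4, while Krt8, a keratin, was at 23.3, 54.6 and 23.3 FPKM. The 5 fibroblast markers had their highest sum in CD4, with 7.70, 10.3 and 31.4 FPKM in the order M1, M2 and CD4. Of 4 counted, 0 differed by 2-fold between M2 and M1 and 3 were lower in M2 than in CD4, with Pdgfrb listed at 0 in CD4 in the rows used. With all rows summed Pdgfrb was at 0.863 FPKM in M1, 0.643 in M2 and 1.44 in CD4. Of 4 endothelial markers, Pecam1 made up most of a sum of 36.0 FPKM in M2, against 3.41 in M1 and 3.57 in CD4.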

How the data were processed

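RNA of 3 sorted cell subsets was sequenced, 1 library each. The authors aligned paired reads to mm9 with Bowtie and TopHat, estimated transcript levels with Cufflinks guided by an Ensembl annotation (Cuffdiff is named in the submitters' processing notes), and deposited 1 table in FPKM. How repeated rows of a transcript arose is not given in the sources used here. Of 135070 rows 10182 lacked an identifier, and 90316 of 92519 identifiers (97.6%) were found in the GENCODE vM1 annotation of NCBIM37.

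A gene's level was the sum over its identifiers of the first row with a value in all 3 columns. Differences were taken on log2(FPKM + 1) and counted from 2-fold among genes with at least 1 FPKM in either library. No test was possible with 1 library each. For depth, the commonest low product of FPKM and transcript length was taken as 1 fragment, over genes with a single transcript of 2500 to 8000 bases and below a ceiling set after seeing the distribution. Whether counting used strand is not given, so that overlapping genes cannot be told apart.

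The members and lists were chosen with earlier results of these data known. All members are named, lists of 7 or fewer in full, and of longer lists genes with the largest and smallest differences, up to 3 in each direction. Rb1 is named outside this rule for its role, after its values were seen. Cdt1, Gins2 and Trac were not analysed here. Alternatives varied the pseudocount, filter, row summary, transcripts, scaling and fold. The calculations were tested on simulated data, with scipy 1.17.1, pandas 2.3.3, numpy 2.4.6 and matplotlib 3.10.9 under Python 3.11.15.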

Additional observations from a re-analysis of the deposited data

Results flagged for a closer look

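For 8 cell cycle genes the rows left out of the gene level, which the comparisons did not use, held more FPKM than the rows used in at least 1 library, 10 cases in all. Ccne1 had 4.50 FPKM in such rows in the library labelled CD4, and Ccnb1 had 11.0 FPKM in M1. Cdca3 had 5.81 FPKM in M2 and 14.8 in CD4, beside 3.79 and 6.50 in the rows used. Cenpa had 67.3 FPKM in CD4, and Kif23 had 13.9 in M1 and 12.1 in M2. Tpx2 had 5.64 FPKM in M2, Nusap1 had 13.9 in M1 and Mki67 had 23.0 in CD4. There were no control samples, and why these rows repeat a transcript was not tested.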

How the results depend on the processing

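No paired analysis was possible because there was 1 library of each kind. Under 11 alternatives each, 0 cell cycle genes were higher in M2, 16 to 31 were lower than in M1 and 15 to 30 lower than in CD4. The fewest below M1 came with FPKM rescaled to a total of 1000000, which gave 16 and 18 and put the median difference of 9817 genes with at least 1 FPKM at 0.23 on the log2 scale for M2 against either library, where it was 0.04 and 0.06 as deposited. The 1.5-fold limit gave the most, by its own construction. Medians ran from -1.09 to -0.88 for M2 minus M1, from -1.06 to -0.87 for M2 minus CD4 and from -0.07 to -0.02 for CD4 minus M1. The S phase median was 1.13 to 1.77 times the mitosis median in M1, 2.54 to 3.13 times in M2 and 1.24 to 1.59 times in CD4 under 3 alternatives.

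The counts of CD4 against M1, 1 higher and 2 lower, rest on rows. They were 0 and 0 with all rows summed, with and without the genes listed at 0 (the latter chosen after seeing the data). At least 10 FPKM gave 0 higher and 1 lower, the highest single row 2 higher, the 1.5-fold limit 4 lower, and leaving out the genes listed at 0, also chosen after seeing the data, 0 higher. Kif23 turned from 1.38 to -0.0035 with all rows. The cause of the repeated rows was not tested. With 1 library per subset no spread is known, and the values cover counting error only.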
